A study of Mus musculus with 12 samples.

Results

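Complex I (NADH:ubiquinone oxidoreductase) is the entry point of the mitochondrial respiratory chain. It takes electrons from NADH, passes them along iron-sulfur clusters in a matrix arm to ubiquinone, and pumps protons through a membrane arm. Most of its subunits are encoded in the nucleus, a smaller set is encoded in the mitochondrial genome, and assembly factors put the complex together without staying in it. In the colon, the surface epithelium depends on mitochondrial oxidation of butyrate, and the respiratory genes are active there.

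The 45 genes described here are the protein-coding genes with symbols that start with Ndufa, Ndufb, Ndufc, Ndufs, Ndufv or Ndufaf and end in digits, and Ndufab1. They are 45 of the 54532 genes listed, and comprise 37 subunit genes and 8 assembly factors (Ndufaf1 to Ndufaf8). The rule used symbols and no measured value. All 45 passed the filter on low counts, which left 17658 genes. Ndufa4 carries the name but is known as a subunit of complex IV, and Ndufab1 is the mitochondrial acyl carrier protein, which also works outside complex I. Of the other subunits, 16 were placed in the matrix arm, among them 7 core subunits that carry out electron transfer, and 19 in the membrane arm.

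Colon RNA of C57BL/6 mice, given as male and 6 weeks old on arrival, was sequenced in 12 libraries, 3 each from 4 groups. The Con group is labelled untreated, and the methods give it vehicle by gavage. The DSS group drank 3% (w/v) dextran sulfate sodium (DSS, an agent that damages the lining of the colon) for 5 days and received vehicle. The UA+DSS group received ursolic acid (UA, a plant triterpenoid, 200 mg/kg by gavage) from 24 hours before DSS, and the DSS+UA group received the same dose from 3 days after DSS began. UA lasted 7 days in UA+DSS and 4 days in DSS+UA by the methods, and 9 and 5 days by the discussion. So the groups differ in the timing and in the length of UA, and no group received UA without DSS. Each library is labelled as a separate sample of its group, and the labels do not say that each came from a separate mouse.

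Total counts were 15566216 to 19498383 per library, and the 45 genes took from 0.262% of the counts (DSS replicate 2) to 0.583% (DSS+UA replicate 2). Levels are counts scaled to a total of 1000000 per library (CPM) and by TMM factors, which were 0.871 to 1.09, and each member had counts in every library. A pair of libraries stood at the ends: of the 37 subunits, 33 had their lowest level of the 12 libraries in DSS replicate 2 and 33 had their highest in DSS+UA replicate 2. DSS replicate 2 also had the lowest summed level of 12 epithelial markers (7796 CPM) and the highest of 12 leukocyte markers (16617 CPM, against 1076 and 1272 in the other DSS libraries). Most of that leukocyte sum came from S100a9 (7510 CPM) and S100a8 (6821 CPM). Adgre1, Cd68 and Cd79a were not highest in DSS replicate 2. The libraries also differed in Hox genes that are graded along the colon. A position score was taken as the mean log2 CPM of those of the rectal side minus that of those of the caecal side. It was -5.70 to -4.16 in UA+DSS, toward the caecum, and 4.11 to 5.06 in DSS+UA, toward the rectum, against 0.366 to 3.10 in DSS. In Con it ran from -3.03 to 5.53. The markers of intestinal epithelium were present in all libraries.

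The promoters of these genes are known for sites of nuclear respiratory factor 1 (NRF1), of the ETS factor GABP, of YY1 and of the estrogen-related receptors (ERR). Promoter windows of 300 bases (250 before to 50 after the RefSeq start, GRCm38.p6) were found for 40 of the 45 genes and for 27025 genes in all, and were searched on both strands. All were searched by their letters. Those of the NRF1 core, with 1 position left free, are the capitals printed for Ndufs5 and Ndufa11, and those of the others were CCGGAAG for ETS, AANATGGC for YY1 and TCAAGGTCA for ERR. The NRF1 motif stood in 7 of 33 subunit windows (21.2%), in 2 of 7 assembly factor windows and in 5.19% of all genes. The YY1 letters stood in 12 of 33 subunit windows (36.4%), in 2 of 7 assembly factor windows and in 6.96% of all genes. The ETS letters stood in 4 of 33 and 2 of 7 against 9.93% of all genes, and the ERR letters in none of the 40 against 0.466%. Of the 34 matches in these windows, no match of one motif overlapped that of another. A match describes letters only. The 100 bases before the RefSeq start are printed for 4 genes that were raised in DSS+UA against DSS, chosen after their values were seen to show the 3 motifs that occur and both roles. The capitals mark the motif.

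Ndufs5 (subunit, NRF1, chr4:123718187-123718286, minus strand): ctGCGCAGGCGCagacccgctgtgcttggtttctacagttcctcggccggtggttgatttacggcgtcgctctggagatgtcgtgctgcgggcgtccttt
Ndufa11 (subunit, NRF1, chr17:56717662-56717761, plus strand): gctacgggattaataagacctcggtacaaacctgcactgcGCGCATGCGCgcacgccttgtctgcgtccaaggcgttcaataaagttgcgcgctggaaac
Ndufaf3 (assembly factor, YY1, chr9:108567437-108567536, minus strand): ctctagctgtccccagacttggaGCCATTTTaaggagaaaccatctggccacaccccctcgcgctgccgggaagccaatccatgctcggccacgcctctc
Ndufaf8 (assembly factor, ETS, chr11:120098834-120098933, plus strand): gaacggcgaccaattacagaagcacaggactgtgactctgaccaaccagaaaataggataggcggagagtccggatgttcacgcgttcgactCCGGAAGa

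The motif lay 98 bases before the RefSeq start in Ndufs5, 60 in Ndufa11, 77 in Ndufaf3 and 8 in Ndufaf8. In Ndufaf3 and Ndufs5 the capitals are the motif read on the other strand. In the GENCODE annotation Ndufs5 and Ndufaf8 start a few bases earlier, so the last bases of these stretches are exon there.

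Across the 12 libraries, subunits were the abundant part of the set and assembly factors the scarce part. Per kilobase of the principal transcript, the mean level of a subunit had a median of 112.9 CPM and that of an assembly factor 14.2 CPM. Ndufa6, an accessory subunit of the matrix arm, was highest with 375 CPM per kilobase, followed by Ndufa4 with 291, as means over the 12 libraries. In DSS the order was turned, with 205 ± 41.7 in Ndufa6 and 226 ± 25.1 in Ndufa4 (SD, n = 3), and the 2 genes' ranges of 1 SD overlapped in every group. The lowest subunit per length was Ndufb2 with 2.63 CPM per kilobase, below the 8 assembly factors (8.48 in Ndufaf6 to 44.9 in Ndufaf8). The transcript of Ndufb2 used for this is annotated with 4371 bases, and its exons overlap Braf on the other strand and Gm42420 on the same strand. Because the use of strand in the counting is not given in the sources used here, reads in the overlap cannot be told apart from those of Braf. Of the 50-base stretches of its exons 5.52% were shared with Braf, Gm42420 or Gm16272. Braf's own mean level was 32.8 CPM (32.8 in Con, 43.6 in DSS, 33.6 in UA+DSS and 21.2 in DSS+UA).

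**Figure D1:**
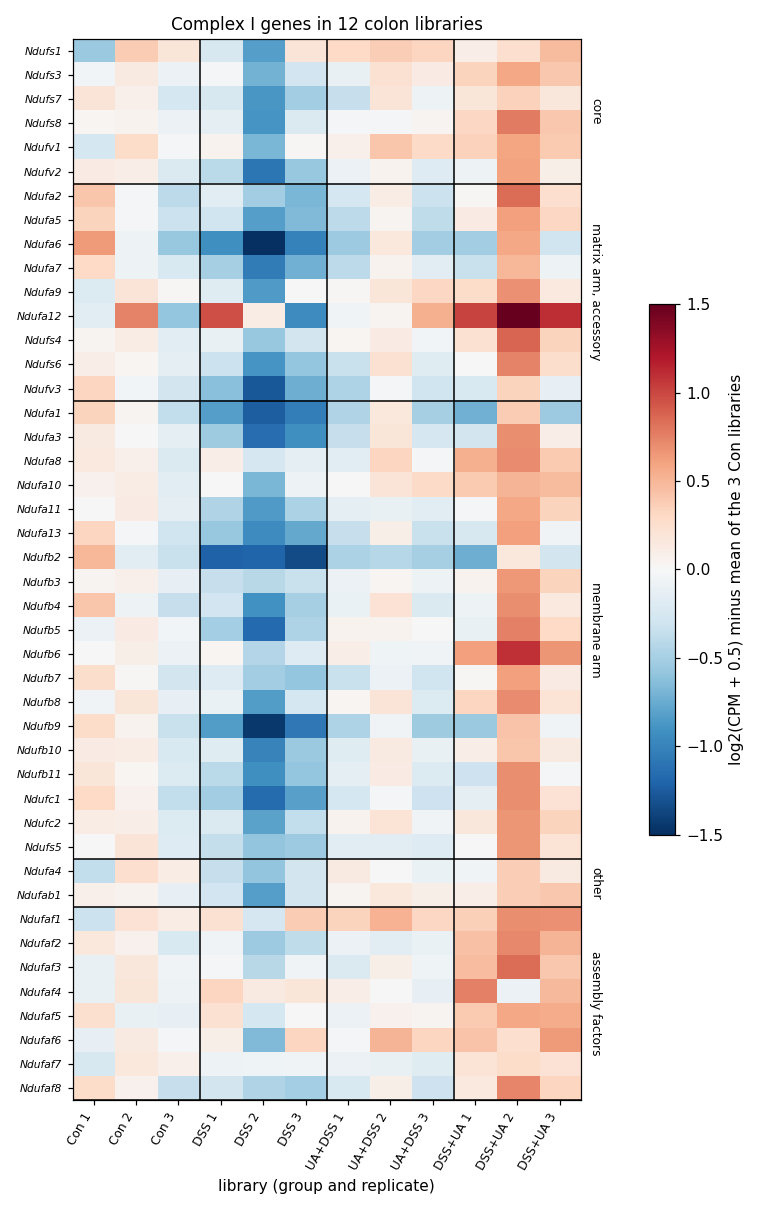
Levels of 44 complex I genes (rows, grouped by role) in the 12 libraries (columns), as log2(CPM + 0.5) minus the mean of the 3 Con libraries, with blue below and red above Con. DSS replicate 2 holds the lowest level of 33 of 37 subunits and DSS+UA replicate 2 the highest level of 33 of 37.

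The summed level of the 37 subunits was 4610, 4533 and 3719 CPM in the Con libraries and 3452, 2357 and 3138 CPM in the DSS libraries. It was 3868, 4606 and 3991 CPM in UA+DSS, against 4328, 6460 and 4870 CPM in DSS+UA. The 3 DSS libraries lay below the other 9, while Con, UA+DSS and DSS+UA overlapped. The summed level of the 8 assembly factors was 158 to 184 CPM in Con, 143 to 174 CPM in DSS and between 159 and 178 CPM in UA+DSS, which overlapped, and 225 to 241 CPM in DSS+UA, above the other 9 libraries. Assembly factors therefore took 3.53% to 4.06% of the members' CPM in Con and 4.80% to 5.71% in DSS. In UA+DSS they took 3.72% to 4.03% and in DSS+UA 3.60% to 4.95%. Of the 37 subunits, 36 had their lowest group mean in DSS and 31 their highest in DSS+UA. Of the 8 assembly factors, 5 had their lowest group mean in DSS and 8 their highest in DSS+UA.

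**Figure D2:**
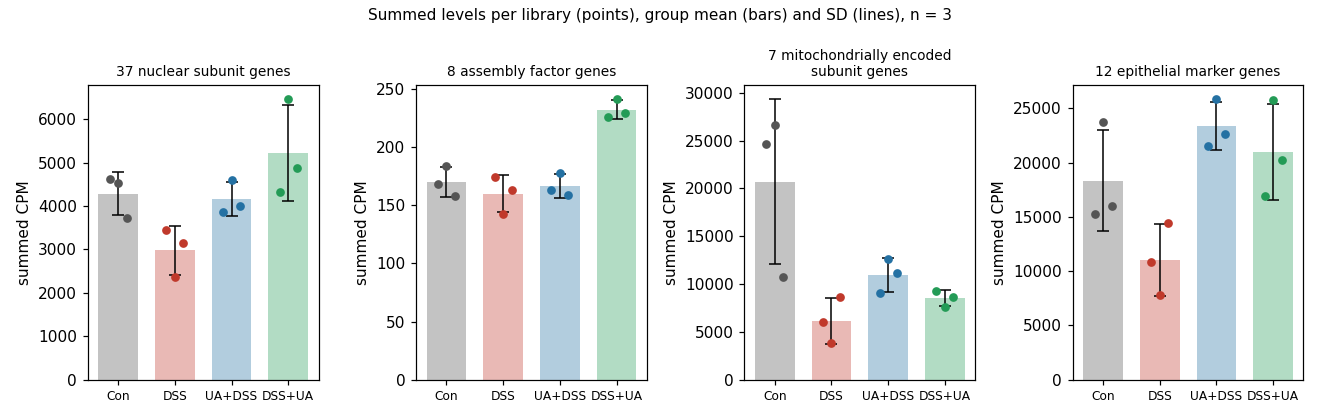
Summed CPM (vertical axes, from 0) of the 37 nuclear subunit genes, the 8 assembly factors, the 7 mitochondrially encoded subunits and 12 epithelial markers in each library (points), with group means (bars) and SD (lines), n = 3. The DSS libraries are lowest for the nuclear subunits, and the DSS+UA libraries are highest for the assembly factors, at 225 to 241 CPM.

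DSS against Con asks what colitis did to these genes. Subunit transcripts were lower in DSS, with 36 of 37 at a lower fitted level, a median log2 fold change of -0.50 and a range from -1.36 to 0.14, beside a median of -0.03 over all tested genes. In edgeR's quasi-likelihood test, adjusted by Benjamini-Hochberg across the 17658 genes, 12 subunits fell and 0 rose, and 25 did not pass. Of all tested genes, 12.6% fell, 13.9% rose and 26.5% passed in either direction. Of the assembly factors 0 of 8 passed, 0 had an unadjusted p under 0.05, and their median log2 fold change was -0.05. DESeq2 called 15 subunits and 0 assembly factors, and limma-voom 12 and 0. The difference between subunits and assembly factors was not tested. In bulk tissue, fewer cells of a type and less RNA per cell cannot be told apart.

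The subunits that fell lay mostly in the membrane arm. Of its 19 subunits 8 fell, of the 16 in the matrix arm 4 fell, and of the 7 core subunits 1 fell. Of all tested genes 12.6% fell, so the core count of 1 of 7 is near the background. The difference between arms was not tested. Ndufb2, an accessory membrane arm subunit, had 21.9, 13.6 and 12.0 CPM in Con and 6.30, 6.41 and 5.76 CPM in DSS. All DSS values lay below all Con values, and it fell by 1.36 ± 0.28 (SE, n = 3 per group) on the log2 scale (adjusted p = 0.00661). Ndufb9, which binds an acyl carrier protein in the membrane arm, had 136, 116 and 88.9 CPM in Con and 62.3, 40.8 and 52.8 CPM in DSS. It fell by 1.13 ± 0.27 on the log2 scale, and its groups did not overlap (adjusted p = 0.012). Ndufv3, an accessory subunit of the NADH-binding end, had 110, 85.3 and 72.3 CPM in Con and 56.7, 36.1 and 52.7 CPM in DSS. Its groups did not overlap either, and it fell by 0.88 ± 0.23 on the log2 scale (adjusted p = 0.0178). Ndufa1, a small membrane subunit needed for assembly, had 122, 99.3 and 74.9 CPM in Con and 54.3, 40.8 and 47.1 CPM in DSS, and fell by 1.06 ± 0.30 on the log2 scale (adjusted p = 0.0265).

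The others that fell were Ndufa11, Ndufa3, Ndufc1, Ndufa6, Ndufa7, Ndufa13, Ndufb5 and Ndufv2, with adjusted p of 0.0276 to 0.047. Ndufa6 had the widest spread within groups of these, with 412, 250 and 178 CPM in Con and 139, 93.0 and 130 CPM in DSS. In 19 of 37 subunits all DSS libraries lay below all Con libraries, which held for 20.1% of all tested genes, and in 0 of 8 assembly factors. The call held for Ndufb2 and Ndufb9 under each of the alternative settings run, while 2 to 14 members were called when 1 library was left out. It was 2 without DSS replicate 2, 3 without Con replicate 1 or Con replicate 2, 5 without DSS replicate 3, and 4 when only the Con and DSS libraries were fitted. The median over subunits stayed between -0.66 and -0.40 under these settings, and was -0.40 without DSS replicate 2.

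Among the core subunits, Ndufv2, which carries an iron-sulfur cluster next to the NADH site, was the 1 that fell. It had 237, 232 and 187 CPM in Con and 164, 102 and 147 CPM in DSS, with no overlap, and a log2 fold change of -0.67 ± 0.22 (adjusted p = 0.0469). Others were lower by less. Log2 fold changes were -0.54 for Ndufs7, which carries the last iron-sulfur cluster before ubiquinone, and -0.38 for Ndufs8, which also carries iron-sulfur clusters. They were -0.32 for Ndufs3, -0.29 for Ndufs1, the largest subunit, and -0.19 for Ndufv1, which binds NADH and FMN. The adjusted p of these 5 were 0.0663 to 0.539. Ndufs1 varied among the Con libraries themselves, with 88.1, 170 and 148 CPM, against 111, 73.2 and 148 CPM in DSS.

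Each assembly factor overlapped between Con and DSS. Ndufaf8, which stabilises Ndufaf5, had the smallest p, with 42.6, 36.6 and 27.4 CPM in Con and 28.7, 25.4 and 24.4 CPM in DSS (log2 fold change -0.44 ± 0.20, adjusted p = 0.128). Ndufaf2, a relative of the subunit Ndufa12 that attaches late in assembly, had 18.0, 17.0 and 13.7 CPM in Con and 15.6, 10.9 and 12.3 CPM in DSS (log2 fold change -0.33 ± 0.18, adjusted p = 0.187). Ndufaf4, which acts early with Ndufaf3, had the highest value, a log2 fold change of 0.22 ± 0.20, with 31.0, 38.2 and 31.9 CPM in Con and 42.2, 37 and 38.1 CPM in DSS. In the others the log2 fold change was 0.13 for Ndufaf1, which works in the intermediate that builds the membrane arm, and -0.16 for Ndufaf3. It was -0.00 for Ndufaf5, which modifies Ndufs7, -0.03 for Ndufaf6, an early factor, and -0.08 for Ndufaf7, a methyltransferase. The per-library difference between the mean log2 level of the subunits and that of the assembly factors was 2.31 to 2.57 in Con and 1.91 to 2.06 in DSS, and did not overlap.

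Markers of other cells moved in the same libraries. All 12 epithelial markers had a lower fitted level in DSS and 2 of 12 fell, Epcam (log2 fold change -0.93, adjusted p = 0.0234) and Cdx1 (-0.74, adjusted p = 0.0491). Of all tested genes 12.6% fell and 13.9% rose, so the count of 2 of 12 is near the background. The summed level of the epithelial markers was 15299 to 23688 CPM in Con and 7796 to 14423 CPM in DSS. Of 12 leukocyte markers 11 rose, and their summed level was 68.1 to 155 CPM in Con and 1076 to 16617 CPM in DSS. Among them S100a9 rose from 0, 0 and 0.107 CPM to 250, 7510 and 325 CPM, and S100a8 from 0.155, 0.277 and 0 CPM to 221, 6821 and 317 CPM. Of 6 fibroblast markers 5 rose, Pdgfra and Dcn with the smallest p, and their summed level was 1068 to 1825 CPM in Con and 3197 to 6930 CPM in DSS. Of 4 endothelial markers 2 rose (Pecam1 and Cdh5), and 0 of 6 smooth muscle markers and 0 of 4 neuron and glia markers passed. The part of these markers in the fall of the subunits was not tested.

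**Figure D3:**
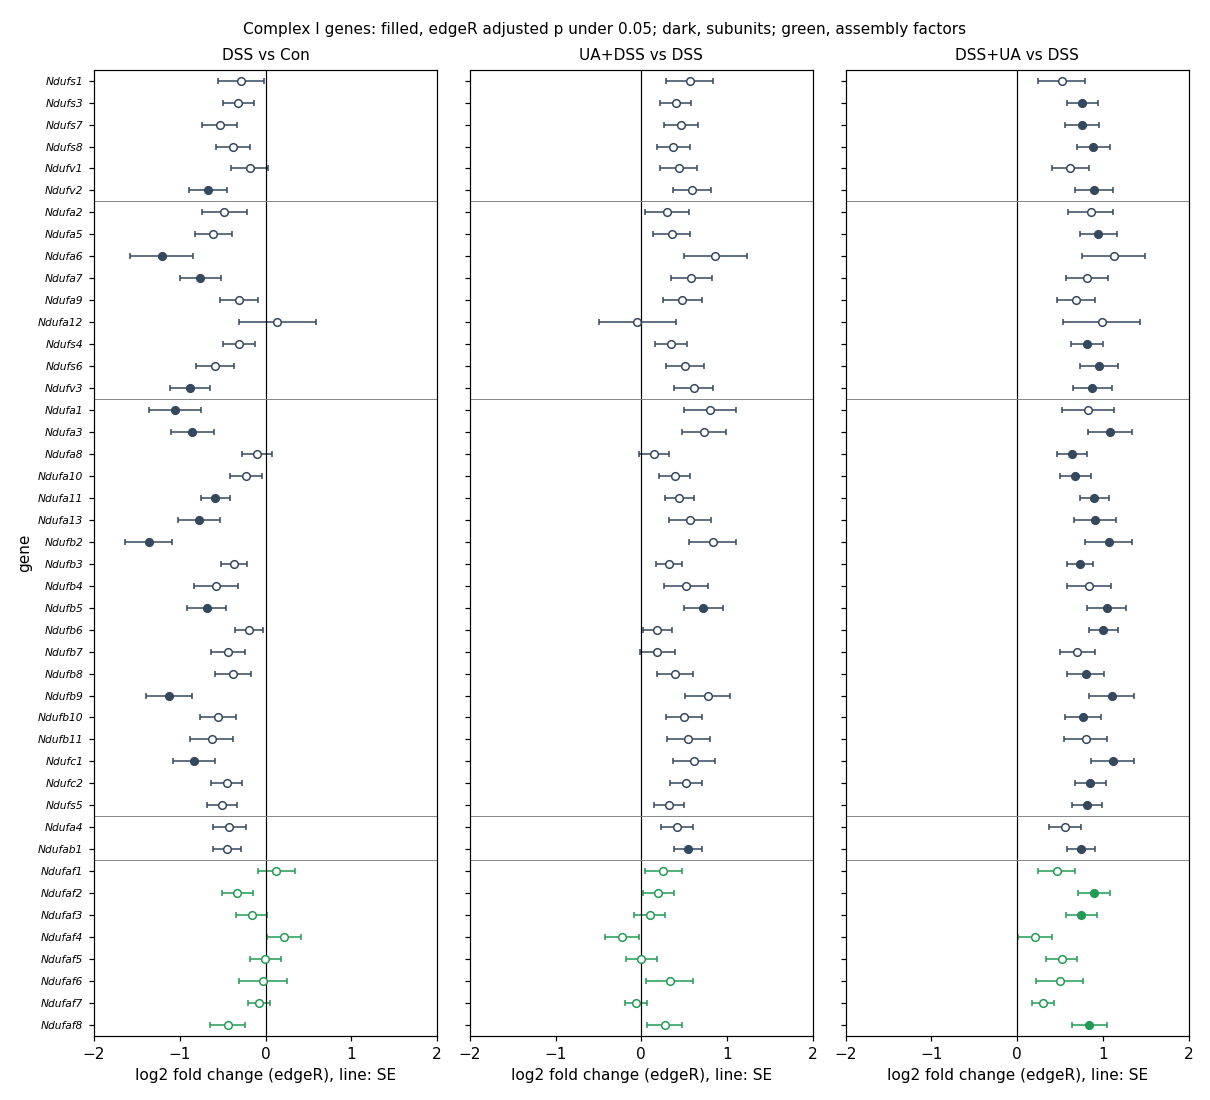
edgeR log2 fold changes (horizontal axis, points) with SE (lines) of 44 complex I genes in DSS against Con and in each UA group against DSS, with filled points at an adjusted p under 0.05. In DSS 12 subunits (dark) and 0 assembly factors (green) are filled, and in DSS+UA against DSS 24 subunits and 3 assembly factors are filled, all to the right.

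UA+DSS against DSS asks how these genes stood where UA was started before DSS. Subunits were higher than in DSS in 36 of 37, with a median log2 fold change of 0.48 (-0.05 to 0.86) beside -0.02 over all tested genes, and 2 of 37 rose, Ndufab1 and Ndufb5. Of all tested genes 8.21% rose, 10.5% fell and 18.7% passed in either direction. In 26 of 37 subunits all UA+DSS libraries lay above all DSS libraries, against 21.1% of all tested genes. Ndufab1 stood at 93.5, 101 and 96.9 CPM with UA first, above the 74.5, 51.1 and 75.0 CPM of DSS alone. It rose by 0.54 ± 0.16 on the log2 scale (adjusted p = 0.0416). Ndufb5, a membrane arm subunit, stood at 119, 119 and 115 CPM, above the 80.2, 50.5 and 82.9 CPM of DSS alone, and it rose by 0.72 ± 0.23 on the log2 scale (adjusted p = 0.0485). The next by p were Ndufb2 and Ndufb9, with adjusted p of 0.0554 and 0.062 and no overlap between the groups.

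Of the 8 assembly factors 0 passed and 0 had an unadjusted p under 0.05, with a median log2 fold change of 0.15. The highest was 0.33 ± 0.28 for Ndufaf6, where 7.83, 11.6 and 10.1 CPM stood against 8.51, 4.86 and 10.1 CPM in DSS alone. The value with the smallest p was 0.27 ± 0.20 for Ndufaf8 (adjusted p = 0.372), with 29.8, 37.1 and 28.1 CPM in UA+DSS. Ndufaf6 was next by p (adjusted p = 0.432). Ndufaf4 was lower in all UA+DSS libraries (36.1, 33.3 and 30.8 CPM) than in any DSS library, without passing the test (log2 fold change -0.23 ± 0.20, adjusted p = 0.444). The core subunits all lay at positive log2 fold changes, from 0.37 in Ndufs8 to 0.59 in Ndufv2, and 0 of 7 passed. The calls for Ndufab1 and Ndufb5 were lost with library size scaling, without the filter on low counts and with the position score as a covariate. They were also lost with the replicate block and when only the DSS and UA+DSS libraries were fitted. When 1 library was left out, 0 to 4 members were called. It was 0 without DSS replicate 1 or DSS replicate 2, and 0 without any 1 of the UA+DSS libraries. It was also 0 without Con replicate 2, Con replicate 3 or DSS+UA replicate 3, and 4 without DSS+UA replicate 1. The median over subunits stayed between 0.32 and 0.63, and was 0.63 with the position score in the fit. Because the position score did not overlap between UA+DSS and DSS, that fit cannot tell position from UA. DESeq2 called 5 members and limma-voom 2.

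In the same comparison 8.21% of all tested genes rose and 10.5% fell. Of 12 epithelial markers 3 rose and 0 fell, and all 12 had a higher fitted level. Their summed level was 21534 to 25841 CPM in UA+DSS. Of this sum, Car1 made up 6524, 9357 and 4602 CPM, against 546, 202 and 1644 CPM in DSS. Of the leukocyte markers 10 of 12 fell, to a summed level of 175 to 287 CPM, and of the fibroblast markers 4 of 6 fell, to 609 to 1636 CPM. Of the endothelial markers 3 of 4 fell, to 86.1 to 107 CPM from 179 to 309 CPM in DSS. Of 6 Hox genes of the caecal side 5 rose and of 5 of the rectal side 2 fell. The part of each in the subunit values was not tested.

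DSS+UA against DSS asks how the genes stood where UA was started after DSS. Here 24 of 37 subunits and 3 of 8 assembly factors rose and 0 fell, where 2.54% of all tested genes rose, 5% fell and 7.54% passed in either direction. All 37 subunits had a positive log2 fold change, with a median of 0.82 and a range of 0.52 to 1.13, beside 0.02 over all tested genes. In 36 of 37 subunits all DSS+UA libraries lay above all DSS libraries, which held for 18.3% of all tested genes, and Ndufs1 was the exception. Of the membrane arm subunits 15 of 19 rose, of the matrix arm 8 of 16, and of the core 4 of 7. The difference between arms was not tested.

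The 4 subunits with the smallest p in this comparison were Ndufb6, Ndufa11, Ndufb3 and Ndufc2. Ndufb6, a membrane arm subunit, had 59.6, 42.8 and 50.8 CPM in DSS, against 89.8, 126 and 92.3 CPM in DSS+UA. All its DSS+UA values lay above all others of the 12 libraries, and it rose by 1.01 ± 0.17 on the log2 scale (adjusted p = 0.0134). Ndufa11, which lies where complex I meets complex III, had 47.1, 35.5 and 46.4 CPM in DSS, against 63.2, 96.2 and 81.4 CPM in DSS+UA. It rose by 0.90 ± 0.17 on the log2 scale (adjusted p = 0.0202), and its DSS+UA values overlapped with Con. Ndufb3 had 49.1, 46.7 and 49.3 CPM in DSS, against 64.8, 98.3 and 78.9 CPM in DSS+UA, and it rose by 0.74 ± 0.15 on the log2 scale (adjusted p = 0.0247). Ndufc2 had 63.9, 42.7 and 57.5 CPM in DSS, against 84.2, 119 and 94.2 CPM in DSS+UA, and it rose by 0.85 ± 0.18 on the log2 scale (adjusted p = 0.0276). Ndufs5, an intermembrane-space subunit, had the same adjusted p to 3 digits, with 72.5, 61.5 and 63.3 CPM in DSS, against 92.9, 147 and 107 CPM in DSS+UA.

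Of the genes that fell in DSS, Ndufb2, Ndufb9, Ndufv3, Ndufa11, Ndufa3, Ndufc1, Ndufa13, Ndufb5 and Ndufv2 rose in DSS+UA against DSS, while Ndufa1, Ndufa6 and Ndufa7 did not pass (adjusted p of 0.103, 0.0752 and 0.0583). The 2 comparisons share the DSS libraries. Ndufb9 had 76.1, 151 and 108 CPM in DSS+UA (log2 fold change against DSS 1.10 ± 0.27, adjusted p = 0.0365). Ndufb2 had 9.06, 17.2 and 12.5 CPM (1.07 ± 0.28, adjusted p = 0.0431).

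Of the core subunits, Ndufs8, Ndufs3, Ndufv2 and Ndufs7 rose. Ndufs8 had 98.4, 58.8 and 94.0 CPM in DSS, against 135, 187 and 144 CPM in DSS+UA, and its log2 fold change was 0.89 ± 0.20 (adjusted p = 0.0294). Ndufv2 had 206, 331 and 231 CPM in DSS+UA (0.90 ± 0.22, adjusted p = 0.0402). The log2 fold changes of Ndufs3 and Ndufs7 were both 0.76, and those of Ndufv1 and Ndufs1, which did not pass, were 0.62 and 0.52.

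Among the assembly factors, Ndufaf2, Ndufaf3 and Ndufaf8 rose. Ndufaf2 had 15.6, 10.9 and 12.3 CPM in DSS, against 22.1, 26.9 and 23.1 CPM in DSS+UA, above all other libraries (log2 fold change 0.90 ± 0.18, adjusted p = 0.0235). Ndufaf3, an early factor that binds Ndufaf4, had 21.0, 15.9 and 20.7 CPM in DSS, against 29.6, 38.8 and 28.5 CPM in DSS+UA, also above all others (0.75 ± 0.18, adjusted p = 0.0361). Exons of Ndufaf3 overlap Impdh2 on the other strand, which had a mean of 99.1 CPM in DSS and 124 CPM in DSS+UA. Without known strand use, reads in that overlap cannot be told apart. Ndufaf8 had 38.7, 58.5 and 43.8 CPM in DSS+UA (0.84 ± 0.20, adjusted p = 0.0371), which overlapped with Con. The other 5 did not pass. Ndufaf5 had 15.8, 11.1 and 13.5 CPM in DSS, against 17.7, 20.3 and 19.8 CPM in DSS+UA (0.52 ± 0.18, adjusted p = 0.0886). Ndufaf7 had 26.8, 26.9 and 27.2 CPM in DSS, against 32.6, 34.3 and 32.9 CPM in DSS+UA (0.30 ± 0.13, adjusted p = 0.15), the smallest spread of the set. Ndufaf1 and Ndufaf6 had log2 fold changes of 0.46 and 0.50. Ndufaf4 was split, with 57.0, 31.4 and 47.2 CPM in DSS+UA, and DSS+UA replicate 2, which was highest for most other members, was below all DSS libraries for it.

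**Figure D4:**
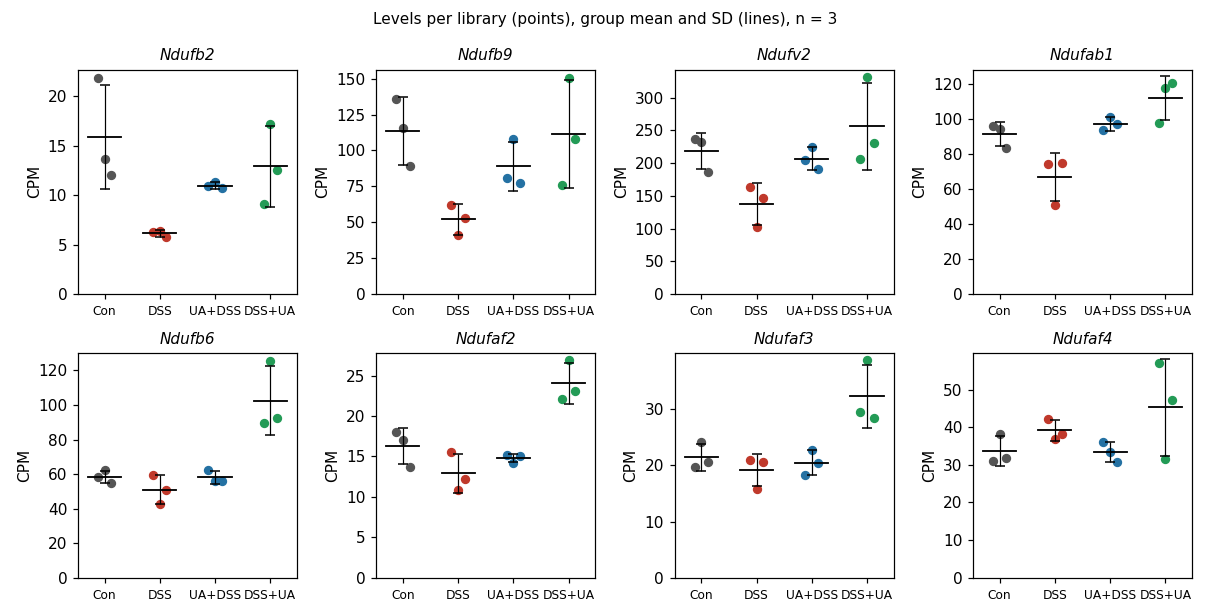
CPM (vertical axes, from 0) of 8 genes in each library (points), with group means and SD (lines), n = 3. Ndufb2, Ndufb9, Ndufv2 and Ndufab1 are lowest in the 3 DSS libraries, Ndufb6, Ndufaf2 and Ndufaf3 are highest in the 3 DSS+UA libraries, and Ndufaf4 runs from 31.4 to 57.0 CPM within DSS+UA.

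The number of calls in DSS+UA against DSS rested on single libraries while the direction did not. Members called were 0 without DSS+UA replicate 2 or DSS+UA replicate 3, 2 without DSS replicate 2, and 10 to 16 without DSS replicate 3, Con replicate 2 or any 1 of the UA+DSS libraries. There were 0 when only DSS and DSS+UA were fitted, 16 with library size scaling and 1 with the position score as a covariate. DESeq2 called 38 and limma-voom 24. The median over subunits stayed between 0.62 and 1.00 under every setting, and was 0.62 without DSS+UA replicate 2, 0.72 without DSS replicate 2 and 0.79 with the position score. Because the position score did not overlap between DSS+UA and DSS, the fit with it cannot tell position from UA. In this comparison 2.54% of all tested genes rose and 5% fell. Of the markers 4 of 12 epithelial rose, to a summed level of 16942 to 25765 CPM, and 1 of 12 leukocyte fell, to 487 to 873 CPM. Of the fibroblast markers 2 of 6 fell, to 949 to 2340 CPM, and 4 of 4 endothelial markers fell. The part of these markers in the values was not tested.

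UA+DSS against Con gave 0 of 45 members called by edgeR, DESeq2 and limma-voom, and 0 of 45 had an unadjusted p under 0.05 by edgeR, where 12.1% of all tested genes had one and 0.00566% were called. The median log2 fold change was -0.06 over subunits (-0.53 to 0.28) and -0.04 over assembly factors (-0.17 to 0.38). The lowest was Ndufb2, with 10.9, 11.3 and 10.7 CPM in UA+DSS, below the 3 Con libraries (-0.53 ± 0.27, adjusted p = 0.457). The highest was Ndufaf1, where 16.4, 18.8 and 16.2 CPM stood above the 10.2, 15.1 and 14.1 CPM of Con (0.38 ± 0.22, adjusted p = 0.49). These were the only 2 of 45 members without overlap between the groups, beside 11% of all tested genes lower and 9.62% higher without overlap.

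DSS+UA against Con gave 1 of 37 subunits and 1 of 8 assembly factors raised and 0 lowered, where 9.13% of all tested genes rose, 8.95% fell and 18.1% passed in either direction. Ndufb6 had 58.2, 62.1 and 54.9 CPM in Con and 89.8, 126 and 92.3 CPM in DSS+UA. It rose by 0.81 ± 0.17 on the log2 scale (adjusted p = 0.011), and its call held under each alternative run. Ndufaf3 had 19.7, 24.2 and 20.5 CPM in Con, and it rose by 0.59 ± 0.18 on the log2 scale (adjusted p = 0.0434), which ranged from 0.0163 to 0.136 over the alternatives. The subunits next by p were Ndufa8, Ndufs4 and Ndufs8, with adjusted p of 0.0503, 0.0813 and 0.0869, and the assembly factor next by p was Ndufaf2, with 0.0506. The median log2 fold change was 0.31 over subunits, 32 of 37 of them positive, and 0.49 over assembly factors, 8 of 8 positive. In 6 of 8 assembly factors and 11 of 37 subunits all DSS+UA libraries lay above all Con libraries, which held for 19.8% of all tested genes. Members called were 6 by DESeq2 and 3 by limma-voom, and 1 to 9 when 1 library was left out, with 9 without DSS replicate 2, 4 without Con replicate 1 and 1 without Con replicate 2, Con replicate 3, UA+DSS replicate 1, UA+DSS replicate 3 or DSS+UA replicate 3. Of the markers 2 of 6 of smooth muscle fell (median log2 fold change -1.74, summed level 466 to 904 CPM in DSS+UA and 1122 to 3571 CPM in Con), 2 of 4 endothelial markers fell and 3 of 12 leukocyte markers rose, while 0 of 12 epithelial and 0 of 6 fibroblast markers passed. Of the Hox genes 2 of 6 of the caecal side fell and 0 of 5 of the rectal side passed. Their part in the values was not tested.

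The mitochondrially encoded subunits of the same complex had a different order of groups. The 7 mt-Nd genes summed to 24698, 26617 and 10779 CPM in Con and 6004, 3866 and 8676 CPM in DSS. They summed to 9107, 12595 and 11153 CPM in UA+DSS, against 9320, 7603 and 8686 CPM in DSS+UA. Con replicate 3 lay apart from the other Con libraries, and the 3 DSS libraries lay below it. In DSS against Con the 7 had a median log2 fold change of -1.63, and where 12.6% of all tested genes fell, 6 of these 7 did. They were mt-Nd4 (-2.03, adjusted p = 0.00392), mt-Nd6 (-2.10, adjusted p = 0.00426), mt-Nd2, mt-Nd1, mt-Nd3 and mt-Nd5, and mt-Nd4l had an adjusted p of 0.106. Against DSS 0 of 7 passed in UA+DSS (median 0.94) or in DSS+UA (median 0.47), where 8.21% and 2.54% of all tested genes rose. In UA+DSS against Con 0 of 7 passed, 6 of 7 had a lower fitted level and the median was -1.02, beside -0.06 for the nuclear subunits. There 4 of 7 had an unadjusted p under 0.05 by edgeR, where 12.1% of all tested genes had one. In DSS+UA against Con mt-Nd2, mt-Nd4 and mt-Nd6 fell, where 8.95% of all tested genes fell. The median was -1.33, beside 0.31 for the nuclear subunits. The ratio of the mt-Nd sum to the sum of the nuclear subunits was 5.36, 5.87 and 2.90 in Con, 1.74, 1.64 and 2.76 in DSS, 2.35, 2.73 and 2.79 in UA+DSS and 2.15, 1.18 and 1.78 in DSS+UA. It was highest in the 3 Con libraries and lowest in DSS+UA replicate 2. The difference between nuclear and mitochondrial genes was not tested.

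Other genes of complex I assembly lie outside the symbol rule, and 11 of 12 on a list of them were matched. Of these 11, 2 fell in DSS, where 12.6% of all tested genes fell. They were Dmac2 and Tmem126b, both known for assembling the membrane arm. Dmac2 had 61.9, 42.4 and 40.2 CPM in Con and 20.0, 21.1 and 21.5 CPM in DSS (log2 fold change -1.21 ± 0.20, adjusted p = 0.00311). Tmem126b had 30.7, 27.9 and 27.0 CPM in Con and 21.1, 20.1 and 19.8 CPM in DSS (-0.49 ± 0.12, adjusted p = 0.0142). Both groups of values were without overlap. Both rose in UA+DSS against DSS (0.93 and 0.47), where 8.21% of all tested genes rose. In DSS+UA against DSS, Tmem126b was among the 2 that rose (0.58, adjusted p = 0.025), where 2.54% of all tested genes rose. In DSS+UA against Con, Dmac2 fell (-0.68, adjusted p = 0.0338) and 3 of the 11 rose, where 8.95% of all tested genes fell and 9.13% rose.

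The nuclear genes of the other complexes gave like counts. In DSS against Con 12 of 34 genes of complexes III to V fell, with a median log2 fold change of -0.66, and 1 of 4 of complex II fell. Uqcrb of complex III and Cox6c of complex IV had the smallest p (-0.87, adjusted p = 0.0167, and -1.13, adjusted p = 0.021), and of complex II Sdhb (-0.71, adjusted p = 0.0274) and Sdhc (-0.52, adjusted p = 0.0856). In UA+DSS against DSS 5 of 34 and 1 of 4 rose, where 8.21% of all tested genes rose. In DSS+UA against DSS 22 of 34 and 3 of 4 rose, where 2.54% of all tested genes rose. The medians for complexes III to V were 0.61 and 0.93. The ratio of the sum of complexes III to V to that of complex I subunits was 2.88 to 3.34 in Con, 2.93 to 3.42 in DSS, 3.37 to 3.53 in UA+DSS and 3.23 to 3.43 in DSS+UA, which overlapped between Con and DSS. Of 13 regulators of respiratory genes, 2 fell and 2 rose in DSS, where 12.6% of all tested genes fell and 13.9% rose, so the counts are near the background. Ppargc1a, a coactivator of mitochondrial genes, had 30.8, 37.6 and 31.7 CPM in Con and 10.8, 6.41 and 8.29 CPM in DSS (-1.97 ± 0.39, adjusted p = 0.00608). It rose in UA+DSS against DSS, to 19.8, 71.8 and 37.3 CPM (2.33 ± 0.39, adjusted p = 0.00972), and had 14.1, 18.9 and 20.2 CPM in DSS+UA (1.06 ± 0.38, adjusted p = 0.097). Hif1a, the oxygen-responsive factor, had 131, 103 and 113 CPM in Con and 259, 417 and 376 CPM in DSS (1.60 ± 0.35, adjusted p = 0.00851). It fell in UA+DSS against DSS (-1.83 ± 0.35, adjusted p = 0.0114), and had 297, 269 and 305 CPM in DSS+UA (-0.40 ± 0.34 against DSS).

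Members differed in how closely they followed the set. Across the 12 libraries, which share groups and depth, the Spearman correlation of a member with the mean of the other subunits ran from -0.14 for Ndufaf4 to 0.98 for Ndufc1, as a description with no test. It was 0.93 for Ndufaf8, 0.84 for Ndufaf2, 0.61 for Ndufaf3 and 0.29 for Ndufaf7. Among subunits it was lowest for Ndufa12 and Ndufs1 (both 0.50). Ndufa12, which takes the place of Ndufaf2 in the finished complex, had the largest spread within groups, with 59.0, 32.3 and 15.4 CPM in DSS, against 61.1, 85.7 and 65.1 CPM in DSS+UA. It shares 17.7% of its 50-base stretches with Gm15920, which had means of 41.7 CPM in Con, 28.3 in DSS, 39.5 in UA+DSS and 44.2 in DSS+UA. The treatment of multiply mapped reads is not given, and the part of shared reads in this spread was not tested. Ndufa12 passed in none of the comparisons with DSS. Ndufa4 had 141, 216 and 196 CPM in Con, 143, 121 and 150 CPM in DSS, 200, 183 and 169 CPM in UA+DSS, and finally 175, 235 and 200 CPM in DSS+UA, and passed in none either.

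Some members share bases with other genes. Exons of 18 of the 45 overlap another gene, on the same strand in 3 (Ndufb2, Ndufb8 and Ndufb9), and 10 share at least 10% of their stretches of 50 bases with another place in the transcripts. Of the 24 with neither, 18 are subunits, of which 6 fell in DSS and 12 rose in DSS+UA against DSS, and 6 are assembly factors, of which 0 and 1 did. Their medians were close to those of all members, -0.50 and 0.82 for these subunits. Ndufaf2 and Ndufaf3, which rose in DSS+UA against DSS, are not among the 24. Of the 50-base stretches of Ndufaf2, 64.1% were shared with other transcripts. The 2 members raised in DSS+UA against Con, Ndufb6 and Ndufaf3, are not among the 24 either. In that comparison 0 of these 18 subunits and 0 of these 6 assembly factors rose. Ndufab1 and Ndufb5, the 2 raised in UA+DSS against DSS, are also outside the 24. There 0 of these 18 subunits rose, with a median log2 fold change of 0.45, where 8.21% of all tested genes rose. Ndufb1-ps, left out by the rule, was annotated as a long noncoding RNA and had 39.2 to 107 CPM. It passed in none of the 5 comparisons. Ndufa4l2, a relative of Ndufa4 that is known to respond to hypoxia, had only 1.92 to 3.88 CPM, without order between the groups, and passed in none either.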

How the data were processed

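RNA of 12 colon samples, 3 per group, was sequenced, and the labels gave each sample its group and replicate number. The authors aligned to GRCm38 and took counts with HISAT2 by the paper's methods, and the submitters' processing notes also name FastQC and Cuffdiff. The deposited files hold raw whole-number counts for each Ensembl gene. Tool versions, strand use, annotation release and the treatment of multiply mapped reads were not given in the sources used here. The labels name Trizol and the methods the RNeasy kit for the RNA.

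From these counts, edgeR 4.0.16 (R 4.3.3) kept 17658 genes by filterByExpr, applied TMM scaling and fitted the 12 samples together in a robust quasi-likelihood model. In the 5 comparisons, p-values were adjusted by Benjamini-Hochberg across these genes, with a threshold of 0.05. The SE is the log2 fold change divided by the root of F. The script was tested on simulated counts. P-values measure the spread between these samples. The methods name 3 colonic tissues per group as the source of the RNA, without saying that each came from a separate mouse. Names came from GENCODE vM21, which named 54409 of 54532 genes. Promoters were taken from RefSeq. No library pair agreed within sampling noise.

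The members and all lists were chosen with earlier results of these data known. Core subunits, assembly factors, the 4 subunits and 2 assembly factors with the smallest p in each comparison, the extremes per length, Ndufa4, Ndufab1, Ndufa4l2, Ndufb1-ps, the mt-Nd genes and the 2 smallest p of each other list in DSS against Con are named with values. Further names and the values beside them were chosen after they were seen. The alternative settings were library size and upper-quartile scaling, DESeq2 1.42.0, limma-voom (limma 3.58.1), no filter, at least 10 counts in every sample, a fit of only the 2 groups concerned, a replicate block, the position score as a covariate and leaving out each library. The result for 1 gene is not reported here.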

Additional observations from a re-analysis of the deposited data

How the results depend on the processing

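Where complex I genes were called, their direction was the same under every alternative, while the number called moved. The position score did not overlap between DSS and either UA group, so the fit with it cannot tell position from UA. DSS against Con called 12 members, and 4 when only its 2 groups were fitted. UA+DSS against DSS called 2, and 5 by DESeq2, and 0 with library size scaling, with no filter, with the replicate block and with the position score. In the fit of 2 groups it called 1, which was neither Ndufab1 nor Ndufb5. DSS+UA against DSS called 27, and 16 with library size scaling, 6 with the replicate block, 1 with the position score and 0 in the fit of 2 groups. DSS+UA against Con called 2, and 6 by DESeq2 and 1 with library size scaling, upper-quartile scaling, no filter, the fit of 2 groups, the replicate block or the position score. UA+DSS against Con called 0 throughout. Leaving out 1 library gave 2 to 14, 0 to 4, 0 to 32, 1 to 9 and 0 to 0 members in the same order. A group left with 2 libraries takes its spread from all. The replicate numbers did not pair the samples: the correlation of same-numbered deviations was -0.216 to 0.187. The cause of the moved counts was not tested. Library size scaling shifted the median of all genes to -0.117 in UA+DSS and -0.114 in DSS+UA against DSS. The median of the assembly factors in DSS against Con ran from -0.15 to 0.04 over the alternatives.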
